A study of Mus musculus with 17 samples.

Results

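The 10 genes followed here act in or favour non-homologous end joining (NHEJ). This pathway rejoins the ends of a broken DNA molecule without a template. The genes were chosen by gene name: Xrcc5 and Xrcc6, Prkdc, Dclre1c, Xrcc4, Lig4 and Nhej1, Poll, Trp53bp1 and Rif1. All 10 were found among the 26029 genes of the model 1 count table and among the 24659 genes of the model 2 table. RNA-seq was performed on cultured erythroid blasts of 17 mice with 1 library per mouse. All 17 are labelled TgSpi1, a line with a constitutively expressed transgene for the ETS transcription factor SPI1 (PU.1). Model 1 (strain DBA2JxFVB/N) held 4 TgSpi1FA+/+ preleukaemic mice (preleukemic_138, preleukemic_445, preleukemic_451, preleukemic_479), 3 TgSpi1FA-/- preleukaemic mice (preleukemic_40, preleukemic_77, preleukemic_224) and 3 TgSpi1FA-/- leukaemic mice (leukemic_26, leukemic_28, leukemic_39). In TgSpi1FA-/- mice, Fanca, a core gene of the Fanconi anaemia pathway of DNA crosslink repair, is knocked out. Model 2 (strain DBA2J) held 4 preleukaemic (preleukemic_633, preleukemic_663, preleukemic_812, preleukemic_837) and 3 leukaemic (leukemic_601, leukemic_606, leukemic_921) TgSpi1FA+/+ mice, and its leukaemic cells came from mice that had been given blood transfusions. Preleukaemic cells depend on erythropoietin (EPO) and form no subcutaneous tumour, leukaemic cells do not need EPO, and all cells were kept with EPO and diluted 2 days before RNA extraction. The RNA input and fragmentation were 400 ng and 8 min in model 1 but 300 ng and 2 min in model 2, and levels are therefore compared within a model. The count table and part of the sample records call preleukemic_40, preleukemic_77 and preleukemic_224 leukaemic, whereas their titles and cell type say preleukaemic, and they were treated as preleukaemic here. Mice are named by stage and number as their titles spell it.

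In NHEJ the Ku heterodimer (XRCC6 and XRCC5, also named KU70 and KU80) threads onto a broken end and recruits the kinase DNA-PKcs, the product of Prkdc. ARTEMIS (Dclre1c) trims ends that cannot be joined, DNA polymerase lambda (Poll) fills short gaps, and the ligase LIG4 seals the break with its partners XRCC4 and XLF (Nhej1). TP53BP1 and RIF1 shield ends from resection and so keep a break available to NHEJ. In cells that lack the Fanconi pathway, crosslink-induced breaks that are handled by NHEJ are a known source of chromosome aberrations, and in developing lymphocytes the same enzymes complete V(D)J recombination.

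Depth ranged over 29964576 to 38217654 counts in the model 1 libraries and over 37726753 to 40514205 in those of model 2. Levels are given as CPM, the counts of a gene scaled to the TMM-adjusted size of its library. Fanca read between 0.615 and 2.30 CPM in the 6 TgSpi1FA-/- libraries and between 28.1 and 83.5 CPM in the 11 TgSpi1FA+/+ libraries, so every library matched its Fanca label. Spi1 read 102.7 to 1060.9 CPM in 16 libraries but 3.88 CPM (153 counts) in the library labelled leukemic_39, and 4.67 CPM there in a second deposited table with other counts of 7 mice of model 1, which goes against its TgSpi1 label. The calls of the 10 genes are therefore also given without this library. Of 14 erythroid genes, 13 were listed in each table, and their summed level was 2468 to 4901 CPM in TgSpi1FA-/- leukaemic cells against 5742 to 6107 in TgSpi1FA-/- preleukaemic cells and 5427 to 8861 in TgSpi1FA+/+ preleukaemic cells of model 1. The libraries of preleukemic_445 and preleukemic_479 differed far less (chi-square per degree of freedom 8.53) than the other pairs of a group in model 1 (114 to 372). The difference is larger than counting noise, which does not show that the 2 libraries come from independent cultures. In the second table the same 2 mice differed by 349.7, beside 393 to 742 for its other pairs. Both were kept as labelled, and the calls lost when they are averaged into 1 library are given. In whole cultures, fewer cells of a type and less RNA per cell cannot be told apart.

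Between TgSpi1FA-/- leukaemic and preleukaemic cells, Prkdc fell and was the only 1 of 10 called, where 13.3% of all 13393 genes tested were called (edgeR quasi-likelihood test, adjusted p under 0.05 and at least 1.5-fold). Between TgSpi1FA-/- leukaemic and TgSpi1FA+/+ preleukaemic cells, Trp53bp1 rose and was the only 1 of 10 called, beside 7.01% of all genes. Neither Fanca genotype at the preleukaemic stage (0 of 10, beside 0.00747% of all genes) nor leukaemic progression in model 2 (0 of 10, beside 0% of all 12970 genes tested) gave a call with edgeR. At an unadjusted p under 0.05 the 4 comparisons, in this order, held 3, 1, 0 and 1 of the 10 genes, beside 32.4%, 27.2%, 8.65% and 19.9% of all genes. DESeq2 called 1, 1, 0 and 0 of the 10, beside 19.0%, 14.8%, 1.61% and 4.01% of the genes it gave an adjusted p. All 10 genes passed the filter on low counts in every fit. Fanca itself was not called between the genotypes at the preleukaemic stage (log2 fold change -5.26 ± 0.65, edgeR adjusted p = 0.0759). A large change could thus go uncalled in that comparison. The 3 comparisons of model 1 share libraries in pairs, and therefore the values of each are given side by side and are not independent.

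From the TgSpi1FA-/- preleukaemic to the leukaemic stage, 7 of the 10 genes were lower and 3 higher, with a median log2 fold change of -0.25 beside -0.00 over all genes tested. The median of the absolute log2 fold change was 0.34 for the 10 genes and 0.51 for all genes. Against TgSpi1FA+/+ preleukaemic cells, the leukaemic cells had a median of -0.20 beside 0.01, with 7 lower and 3 higher. At the preleukaemic stage the median was 0.06 beside 0.00, and in model 2 it was 0.02 beside -0.03.

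**Figure D1:**
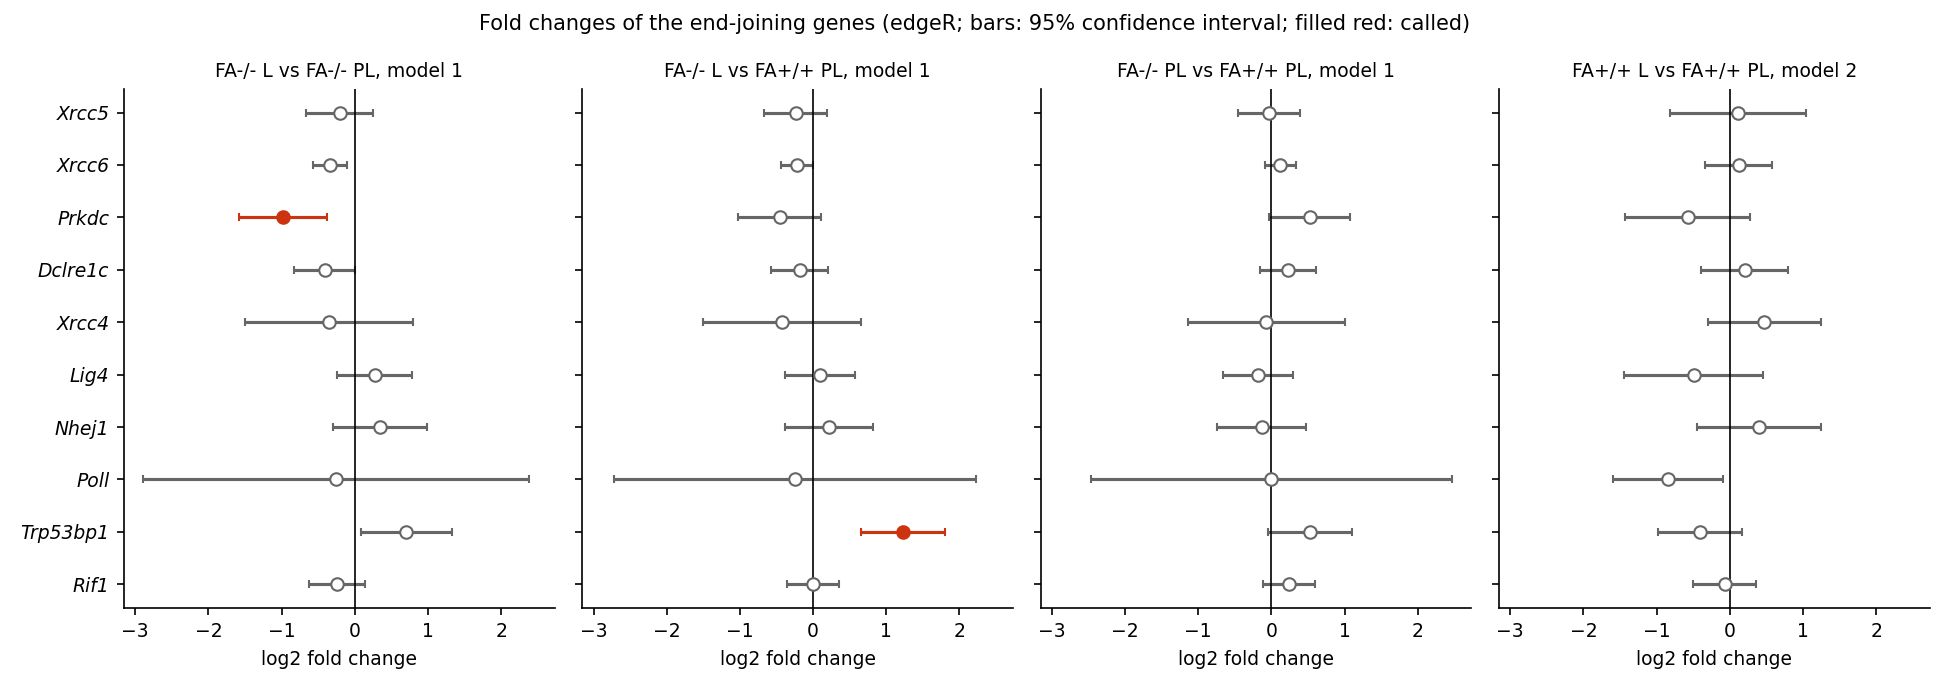
Log2 fold change of each of the 10 genes (points) with its 95% confidence interval (bars) in 4 comparisons, 1 panel each, from edgeR. FA-/- and FA+/+ are the Fanca genotypes, PL is preleukaemic and L leukaemic. Filled red points mark Prkdc at -0.98 in the first panel and Trp53bp1 at 1.23 in the second, which were called, and the widest intervals in model 1 belong to Poll.

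The groups were also compared by whether their libraries overlap. For TgSpi1FA-/- leukaemic against preleukaemic cells, 5 of 10 genes did not overlap, beside 38.7% of all genes. Of these, 1 was higher (Trp53bp1) and 4 were lower (Prkdc, Xrcc5, Xrcc6 and Dclre1c), beside 19.4% and 19.3% of all genes. For leukaemic against TgSpi1FA+/+ preleukaemic cells it was 1 of 10 (Trp53bp1, higher), beside 12.8% of all genes higher and 12.9% lower (25.7% together). For the genotypes at the preleukaemic stage it was again Trp53bp1 alone, higher, beside 4.26% higher and 4.27% lower (8.53% together). In model 2 it was Poll alone, lower, beside 9.65% higher and 10.4% lower (20.1% together). The smallest two-sided p that an exact permutation test allows is 0.1 for 3 against 3 mice and 0.0571 for 3 against 4, and over the 40 tests of 10 genes in 4 comparisons the lowest Benjamini-Hochberg adjusted value of the exact permutation test was 0.327.

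Among the end-binding genes, Xrcc6 (chr15:81987835-82040085, GRCm38, plus strand) was the steadiest of the 10 in model 1, with a 1.37-fold range over its 10 libraries. It read 133.5, 132.2 and 147.5 CPM in leukemic_26, leukemic_28 and leukemic_39 and 180.9, 165.6 and 176.6 CPM in TgSpi1FA-/- preleukemic_224, preleukemic_40 and preleukemic_77. All 3 leukaemic libraries thus lay below all 3 preleukaemic libraries of the same genotype, by a log2 fold change of -0.34 ± 0.10 (SE) with an adjusted p of 0.0573 (edgeR), which did not pass. The 4 TgSpi1FA+/+ preleukaemic libraries, at 146.6 to 169.9 CPM, overlapped the leukaemic range by preleukemic_138 and leukemic_39 alone. Xrcc6 was not the steadiest in the second table of counts, where it ranged from 88.7 to 180.7 CPM and Lig4 from 10.2 to 13.7 CPM. In model 2, Xrcc6 read 124.0, 176.5, 160.8 and 137.0 CPM in preleukaemic and 138.6, 154.0 and 195.6 CPM in leukaemic cells, and the groups overlapped. Xrcc6 overlaps Desi1 on the opposite strand, and Desi1 had the opposite sign between TgSpi1FA-/- leukaemic and preleukaemic cells (log2 fold change 0.27 ± 0.09, adjusted p = 0.0768, not called).

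Its partner Xrcc5 (chr1:72307421-72394952, plus strand) read 77.9, 88.6 and 92.8 CPM in leukemic_26, leukemic_28 and leukemic_39 and 94.1, 112.3 and 93.2 CPM in TgSpi1FA-/- preleukemic_224, preleukemic_40 and preleukemic_77. The groups were separate only by the narrow gap between leukemic_39 and preleukemic_77, and the log2 fold change of -0.21 had an interval from -0.66 to 0.24. In TgSpi1FA+/+ preleukaemic cells Xrcc5 ranged from 80.2 CPM in preleukemic_138 to 140.1 in preleukemic_451. The widest spread was in model 2, where leukemic_601, leukemic_921 and leukemic_606 read 32.9, 71.7 and 107.1 CPM and preleukaemic cells 53.5, 87.4, 47.1 and 72.9 CPM. Leaving out leukemic_606 turned the model 2 log2 fold change from 0.11 to -0.32, neither of which was called.

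Prkdc (chr16:15637866-15842235, plus strand, 86 merged exons) encodes the largest protein of the pathway, and its RNA was lower in leukaemic cells without Fanca. It read 33.0, 50.3 and 66.5 CPM in leukemic_26, leukemic_28 and leukemic_39, against 76.4, 107.1 and 112.1 CPM in TgSpi1FA-/- preleukemic_77, preleukemic_224 and preleukemic_40. Every leukaemic library lay below every preleukaemic one, with a mean of 49.9 ± 16.7 against 98.5 ± 19.4 CPM (SD, n = 3 each). The log2 fold change was -0.98 ± 0.27 (SE, 95% interval -1.58 to -0.38, edgeR adjusted p = 0.0418). TgSpi1FA+/+ preleukaemic cells, at 59.1 (preleukemic_479), 60.7 (preleukemic_445), 68.7 (preleukemic_138) and 85.9 CPM (preleukemic_451), lay between these groups and overlapped both. Against them the leukaemic cells differed by -0.46 ± 0.25 (adjusted p = 0.273) and the TgSpi1FA-/- preleukaemic cells by 0.52 ± 0.25 (adjusted p = 0.593), and neither passed. In the second table of counts, Prkdc read 87.1, 74.8 and 50.3 CPM in leukemic_26, leukemic_28 and leukemic_39, the reverse of the order above. TgSpi1FA+/+ preleukaemic cells read 82.5 to 114.2 CPM there. The second table holds no TgSpi1FA-/- preleukaemic mice, so the called comparison could not be repeated in it.

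The call of Prkdc was near its threshold. It held in 4 of 13 other fits and was lost with DESeq2's size factors in edgeR (adjusted p = 0.0506), without a filter (0.0557), with preleukemic_445 and preleukemic_479 averaged (0.0608), with a fit of the compared groups alone (0.0954) and without any 1 of preleukemic_77 (0.0523), leukemic_26 (0.0633), preleukemic_40 (0.103), preleukemic_224 (0.115) or leukemic_28 (0.118), with log2 fold changes from -1.22 to -0.75 throughout. It held without leukemic_39 (-1.22, adjusted p = 0.0414). In model 2, Prkdc read 37.6, 52.4, 26.1 and 80.1 CPM in preleukemic_633, preleukemic_663, preleukemic_812 and preleukemic_837 and 34.0, 30.6 and 34.1 CPM in leukemic_601, leukemic_606 and leukemic_921. The leukaemic libraries lay close together inside the preleukaemic range, with a log2 fold change of -0.58 (interval -1.43 to 0.28, adjusted p = 0.420).

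The start of Prkdc lies 466 bases from that of Mcm4, which lies on the opposite strand and encodes a subunit of the replicative helicase. Mcm4 read 349.9, 445.05 and 436.7 CPM in leukaemic and 449.0, 440.1 and 493.3 CPM in TgSpi1FA-/- preleukaemic cells, and its log2 fold change of -0.17 ± 0.14 was not called (adjusted p = 0.451). The 8 other tested genes within 1 Mb of Prkdc had a median log2 fold change of 0.08 in that comparison.

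Dclre1c (chr2:3424131-3464130, plus strand), the nuclease that DNA-PKcs activates, was not called in the same comparison, although its groups did not overlap. It read 22.3, 23.1 and 23.2 CPM in leukaemic cells and 30.0, 30.0 and 31.1 CPM in TgSpi1FA-/- preleukaemic cells, with the least spread between mice of any of the 10 genes in both groups (coefficients of variation 2.22% and 2.09%). The log2 fold change was -0.41 ± 0.19 (adjusted p = 0.161). TgSpi1FA+/+ preleukaemic mice preleukemic_138, preleukemic_445 and preleukemic_479 lay at 23.1 to 23.6 CPM, beside the leukaemic values, and preleukemic_451 at 33.6 CPM. The narrow spread did not repeat in the second table of counts. Dclre1c read 39.1 to 47.7 CPM in leukaemic cells there, with a coefficient of variation of 11.2% beside 1.62% for Rif1, and 37.2 to 62.1 CPM in TgSpi1FA+/+ preleukaemic cells. In model 2 both groups ranged widely, from 20.9 to 31.6 CPM in preleukaemic and from 24.6 to 37.0 CPM in leukaemic cells. The 3' end of the gene overlaps Suv39h2 on the other strand, which was not called between TgSpi1FA-/- leukaemic and preleukaemic cells (log2 fold change 0.21 ± 0.15).

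None of the ligation genes was called in any comparison. Lig4 (chr8:9969049-9977686, minus strand) read 14.7, 17.5 and 18.7 CPM in leukaemic cells of model 1 and 12.1 to 19.6 CPM over the 7 preleukaemic libraries, a log2 fold change of 0.27 (interval -0.24 to 0.78) against TgSpi1FA-/- preleukaemic cells. In model 2 it read 5.18, 9.80 and 9.76 CPM in leukaemic and 12.4, 10.7, 7.23 and 16.1 CPM in preleukaemic cells, with a log2 fold change of -0.50 (interval -1.45 to 0.46). Nhej1 (chr1:74967139-75125200, minus strand) read 7.89, 9.76 and 10.1 CPM in leukaemic and 6.53 to 8.47 CPM in TgSpi1FA-/- preleukaemic cells, overlapping by leukemic_26 and preleukemic_40. Its log2 fold change was 0.35 (interval -0.30 to 0.99) there and 0.40 (interval -0.45 to 1.25) in model 2.

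Xrcc4 (chr13:89774027-90089608, minus strand) rested on 114 to 557 counts per library and varied widely between like mice, with a coefficient of variation of up to 47.7%. Among TgSpi1FA+/+ preleukaemic mice of model 1 it read 3.24 CPM in preleukemic_138 and 11.3 in preleukemic_479, and its interval between leukaemic and TgSpi1FA-/- preleukaemic cells ran from -1.50 to 0.80. A level lower by 2-fold therefore lies within the interval for Xrcc4, and so does no change. In model 2 the leukaemic cells read 9.76 to 14.3 CPM and the preleukaemic cells 6.23 to 10.2, which overlapped at a log2 fold change of 0.47 ± 0.33. Its 5' end overlaps that of Tmem167, which is expressed more strongly and on the opposite strand, at 73.8 to 236.6 CPM over all 17 libraries. The strand setting of the counting is not given in the sources used here.

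Poll (chr19:45552275-45560531, minus strand) behaved unlike the other 9 genes, since 1 library nearly lacked it. In leukemic_39 only 3 counts of Poll were found, or 0.0761 CPM (95% Poisson interval 0.0157 to 0.222, covering counting error only). The other 9 libraries of model 1 read 10.6 to 34.3 CPM with a median of 17.1, so that leukemic_39 held 0.444% of that median. Among all 10, leukemic_26 had the highest value (34.3 CPM) and leukemic_28 the second lowest (10.6 CPM). The 3 leukaemic mice therefore covered the full range of the model, and their mean describes none of them. The second table of counts of the same mice gave 6 counts of Poll in leukemic_39 (0.164 CPM), against 10.2 to 34.3 CPM in its other 6 libraries.

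The gene that shares its start region with Poll was also near 0 in that library. Gm17018, which lies where RefSeq places Dpcd, starts 84 bases from Poll on the plus strand and runs away from it. It read 1 count in leukemic_39 (0.0254 CPM, interval 0.000642 to 0.141) and 14.0 to 38.4 CPM in the other 9 libraries, and 1 count in leukemic_39 in the second table as well. The bases between the start of Poll and that of Dpcd are shown because both RNAs were at or near 0 in the same mouse. The sequence is from RefSeq (GRCm38.p6, chr19:45560532-45560584, plus strand), and capitals mark the core of the ETS motif, GGAAG, on either strand.

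Poll-Dpcd interval: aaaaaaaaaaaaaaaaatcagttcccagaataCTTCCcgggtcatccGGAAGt

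Each strand of the interval holds 1 GGAAG core, a total of 2 in 53 bases. Of 32817 mouse windows of the 53 bases before a start, 21.6% held at least 1 core and 3.26% at least 2. None of the other tested genes within 1 Mb was as far below the other libraries in leukemic_39. Btrc, which encodes a ubiquitin ligase subunit, read 49.7 CPM in leukemic_39, which was close to leukemic_26 and leukemic_28 (49.96 and 53.5) and above the 7 preleukaemic libraries (13.3 to 31.7). Fbxw4, on the other side, read 7.76 CPM in leukemic_39, between 4.42 and 20.7 CPM in the others. Over the 30 other tested genes that start within 1 Mb of Poll, the median difference of leukemic_39 from the other libraries was -0.03 on the log2 scale and the lowest was -0.86.

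**Figure D2:**
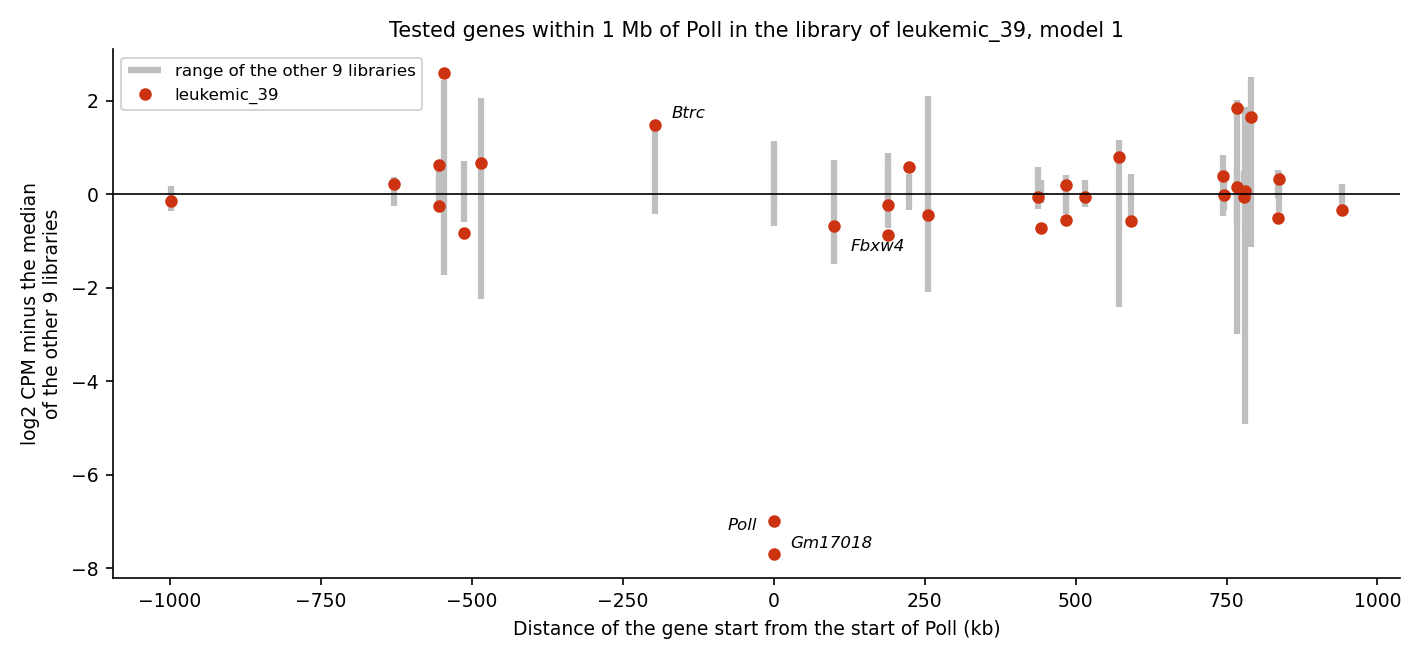
Level of each tested gene within 1 Mb of the start of Poll in the library of leukemic_39 (red points), as log2 CPM minus the median of the other 9 libraries of model 1, against the distance of its start from that of Poll in kb. Grey bars span the other 9 libraries. Poll and Gm17018 lie near -7 and -8 at distance 0, whereas the lowest of the 30 other genes lies at -0.86.

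Of 13393 genes tested in model 1, 15 had at most 3 counts in leukemic_39 and at least 10 CPM in each of the other 9 libraries, and 0 to 6 genes did so in any other library. Both limits lie at the values of Poll itself, with 3 counts in leukemic_39 and at least 10.6 CPM in the others. The place of Poll among these 15 was therefore fixed, and the contrast with other libraries rests on these limits. Gm17018 was also among the 15. Spi1 itself read 3.88 CPM in leukemic_39, against 219.7 and 629.9 in leukemic_28 and leukemic_26 and 467.1 to 1060.9 in the 7 preleukaemic libraries, and its part in the level of Poll was not tested. With all libraries, the log2 fold change of Poll between TgSpi1FA-/- leukaemic and preleukaemic cells was -0.25 (interval -2.89 to 2.39). It was 0.36 (-0.63 to 1.36) without leukemic_39 and -1.73 (-4.64 to 1.18) without leukemic_26, so 1 mouse decided its sign.

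In model 2, Poll was the gene of the 10 that came nearest to a call. It read 7.70, 11.1 and 7.38 CPM in leukemic_601, leukemic_606 and leukemic_921 and 19.6, 16.1, 15.0 and 12.1 CPM in preleukemic_633, preleukemic_663, preleukemic_812 and preleukemic_837. All leukaemic values lay below all preleukaemic values, a log2 fold change of -0.85 ± 0.32 (interval -1.60 to -0.10) with an adjusted p of 0.210 (edgeR). Gm17018 differed by a like amount, -0.82 ± 0.34 (adjusted p = 0.236), with 8.64 to 12.5 CPM in leukaemic and 12.9 to 27.1 CPM in preleukaemic cells. The 33 tested genes within 1 Mb of Poll had a median log2 fold change of -0.62 in that comparison, beside -0.03 over all genes.

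**Figure D3:**
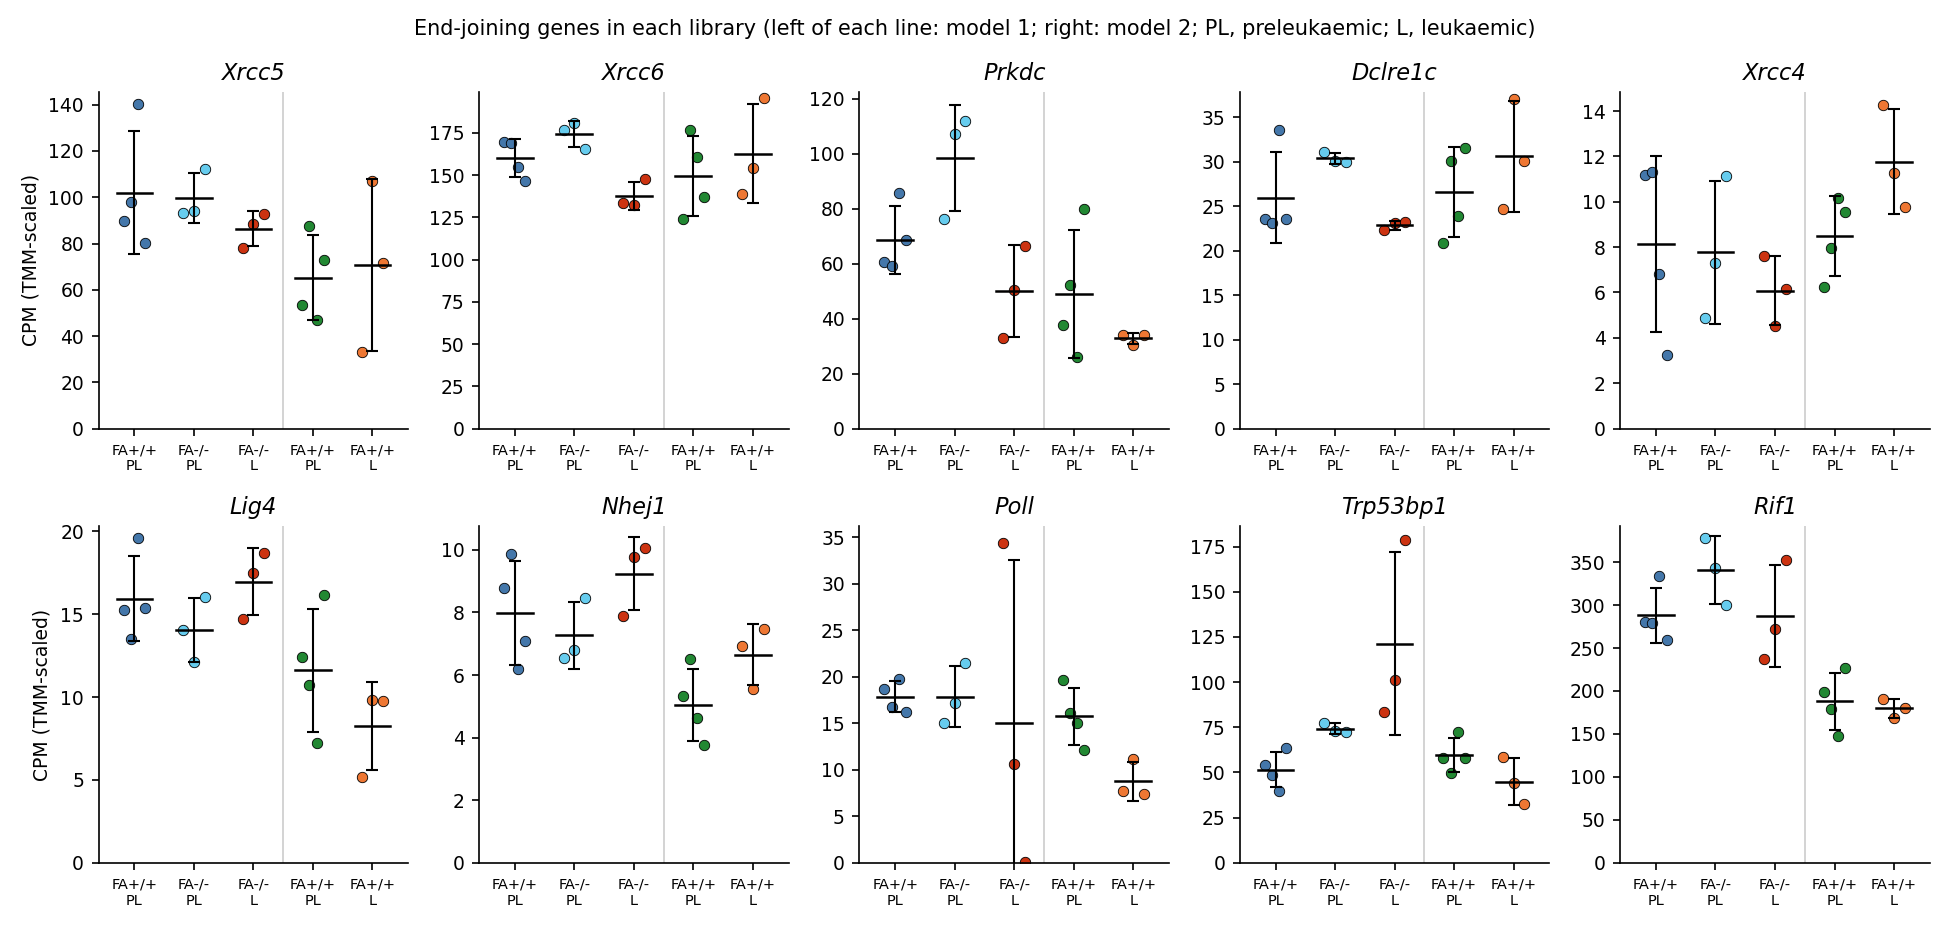
CPM of each of the 10 genes in every library (points), with the mean (line) and SD (bars) of each group. In each panel the 3 groups left of the grey line are model 1 and the 2 groups right of it model 2, and each axis starts at 0. Trp53bp1 reaches 178.9 CPM in 1 TgSpi1FA-/- leukaemic library, and Poll is close to 0 in the same library.

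Trp53bp1 (chr2:121193281-121271407, minus strand), whose product TP53BP1 binds chromatin around a break, was the one gene of the 10 called higher. It read 83.5, 101.2 and 178.9 CPM in leukemic_26, leukemic_28 and leukemic_39, against 72.5 to 77.5 CPM in the 3 TgSpi1FA-/- preleukaemic libraries and 39.9, 48.8, 54.2 and 63.5 CPM in TgSpi1FA+/+ preleukemic_451, preleukemic_479, preleukemic_445 and preleukemic_138. The 3 groups did not overlap, in the order TgSpi1FA+/+ preleukaemic, TgSpi1FA-/- preleukaemic, TgSpi1FA-/- leukaemic. Leukaemic against TgSpi1FA+/+ preleukaemic cells gave a log2 fold change of 1.23 ± 0.25 (SE, 95% interval 0.66 to 1.80, edgeR adjusted p = 0.0265). Both steps between neighbouring groups were smaller and were not called, at 0.52 ± 0.25 from TgSpi1FA+/+ to TgSpi1FA-/- preleukaemic cells (adjusted p = 0.600) and 0.71 ± 0.27 from TgSpi1FA-/- preleukaemic to leukaemic cells (adjusted p = 0.110).

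The call of Trp53bp1 held in 7 of 15 other fits, among them DESeq2 (adjusted p = 0.00105). It was lost in a fit of the compared groups alone (0.0587), with preleukemic_445 and preleukemic_479 averaged (0.0792) and without any 1 of preleukemic_451 (0.0594), leukemic_39 (0.0608), leukemic_28 (0.0736), preleukemic_445 (0.0752) or preleukemic_479 (0.0821), while the log2 fold change ran from 0.85 (without leukemic_39) to 1.44 (without leukemic_26). In the second table of counts of these mice, Trp53bp1 read 91.9, 93.1 and 107.5 CPM in leukaemic and 33.4 to 60.1 CPM in preleukaemic cells, again without overlap, at 1.01 on the log2 scale (adjusted p = 0.0799).

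In model 2 the sign was the opposite. Trp53bp1 read 58.3, 44.1 and 32.3 CPM in leukaemic and 58.2, 49.5, 72.1 and 57.9 CPM in preleukaemic cells, with a log2 fold change of -0.41 ± 0.25 (interval -0.98 to 0.17). Model 1 minus model 2, the leukaemic change was 1.10 ± 0.37 higher on the log2 scale (interaction in edgeR, adjusted p = 0.0842), which was not called, whereas DESeq2 called it (adjusted p = 0.0461). Genotype, strain, library protocol and mode of progression cannot be told apart in this difference.

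For Trp53bp1, whose level separated the groups of model 1, the 250 bases before its start are shown. They are from RefSeq (GRCm38.p6, chr2:121271408-121271657, minus strand), and capitals mark a GC box, GGGCGG, which 32.7% of all such windows hold on either strand.

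Trp53bp1 upstream: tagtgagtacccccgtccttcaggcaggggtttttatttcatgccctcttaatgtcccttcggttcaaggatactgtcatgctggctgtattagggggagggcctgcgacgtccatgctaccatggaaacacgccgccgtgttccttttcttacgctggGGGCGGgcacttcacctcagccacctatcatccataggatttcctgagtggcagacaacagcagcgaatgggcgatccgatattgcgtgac

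The GC box starts 91 bases before the annotated start. Neither a CCAAT box (CCAAT) nor a TATA box (TATAAA) was found on either strand of this window. Of the 10 genes, 7 had such windows, with 2 for Lig4. Of these 8 windows, 6 held a GC box, 5 the ETS core (64.1% of all windows), 2 a CCAAT box (33.8%) and 0 a TATA box (12.4%). The E2F motif was searched in 2 forms, of which TTTCCCGC was found in the window of Xrcc6 alone (0.893% of all windows) and TTTGGCGC in none (0.417%).

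Trp53bp1 runs into Tubgcp4 on the opposite strand at its 3' end, and Tubgcp4 was not called in any comparison (for example, log2 fold change 0.25 ± 0.25 for leukaemic against TgSpi1FA+/+ preleukaemic cells). On the other side, Map1a, which encodes a neuronal microtubule-associated protein, read 24.0, 117.7 and 133.4 CPM in leukemic_26, leukemic_28 and leukemic_39 and 0.18 to 0.74 CPM in TgSpi1FA-/- preleukaemic cells (log2 fold change 7.90 ± 1.38, adjusted p = 0.0123). Map1a read 0.698 to 12.7 CPM in TgSpi1FA+/+ preleukaemic cells, and it was called against these as well (log2 fold change 4.17 ± 1.01, adjusted p = 0.0415). Its part in the level of Trp53bp1 was not tested. The 35 tested genes within 1 Mb of Trp53bp1 had a median log2 fold change of -0.12 against TgSpi1FA-/- and 0.12 against TgSpi1FA+/+ preleukaemic cells.

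Rif1 (chr2:52072832-52122383, plus strand), which acts downstream of TP53BP1, did not follow it. It read 237.1, 271.8 and 353.0 CPM in leukemic_26, leukemic_28 and leukemic_39, 300.1 to 378.6 CPM in TgSpi1FA-/- preleukaemic and 259.8 to 333.8 CPM in TgSpi1FA+/+ preleukaemic cells. The 3 ranges overlapped, and the log2 fold change between leukaemic and TgSpi1FA+/+ preleukaemic cells was -0.00 with an interval of -0.36 to 0.35. In model 2 it was -0.07 (interval -0.50 to 0.36), at 168.2 to 190.1 CPM in leukaemic and 147.8 to 226.4 CPM in preleukaemic cells.

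Ratios of partner genes within a library do not depend on scaling. Per kb of merged exons, Rif1 stood to Trp53bp1 at 3.83, 3.62 and 2.66 in leukemic_26, leukemic_28 and leukemic_39, at 5.58 to 6.58 in TgSpi1FA-/- preleukaemic and at 5.52 to 11.3 in TgSpi1FA+/+ preleukaemic cells. All leukaemic ratios were thus lower than all others of model 1. Prkdc stood to Xrcc5 at 0.0822, 0.110 and 0.139 in leukaemic and at 0.159, 0.193 and 0.221 in TgSpi1FA-/- preleukaemic cells, again without overlap. For the Ku pair, Xrcc6 stood at 0.630 to 1.10 times Xrcc5 per kb of merged exons over 10 libraries of model 1. It stood at 0.821 to 2.41 times over the 7 libraries of model 2, whose protocol differed, and the models are not compared. The size of this ratio depends on the length used. Per kb of the longest transcript, Xrcc6 held the first place in every group, for example at 41.8 beside 33.8 CPM for Xrcc5 in TgSpi1FA-/- leukaemic cells. Over 6 ratios and 4 comparisons, 3 of 24 did not overlap, and no such share for other gene pairs is given. The lowest adjusted p of the exact permutation test over these 24 was 0.527. No ratio could have passed this test at the threshold used for calls. Its smallest possible p before adjustment is 0.1 for 3 against 3 mice and 0.0571 for 3 against 4. The test therefore cannot tell whether a ratio differed.

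Per kb of merged exons, the 10 genes fell into 2 tiers. Xrcc5, Xrcc6 and Rif1 held the first 3 places in every group, at group means of 27.4 to 39.9 CPM per kb in model 1 and 17.1 to 36.4 in model 2. The other 7 genes had group means of 1.44 to 8.56 CPM per kb, and in each group the third place did not overlap the fourth. Within the first tier, Xrcc5 and Xrcc6 overlapped in all 5 groups. In the second tier, Xrcc4 was the lowest in the 3 groups of model 1 and in preleukaemic cells of model 2 (1.44 to 2.01 CPM per kb), and Lig4 was the lowest in leukaemic cells of model 2 (1.59 ± 0.51). Trp53bp1 held the seventh place in TgSpi1FA+/+ preleukaemic cells of model 1 (3.64 ± 0.70) and the fourth in TgSpi1FA-/- leukaemic cells (8.56 ± 3.58), where it overlapped Nhej1. Prkdc went from the fifth place in TgSpi1FA-/- preleukaemic cells (7.47 ± 1.47) to the seventh in leukaemic cells (3.79 ± 1.27).

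**Figure D4:**
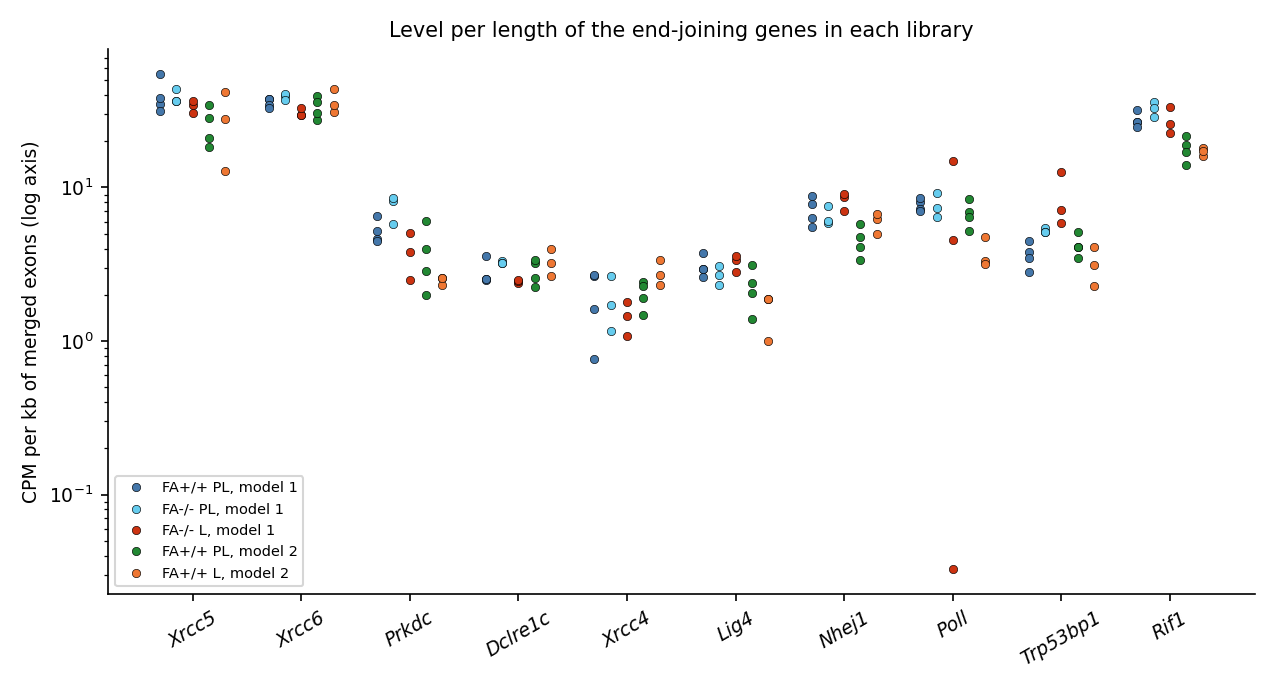
Level of each gene in each library as CPM per kb of merged exons (log axis), by group (colours). Within each group Xrcc5, Xrcc6 and Rif1 lie above the other 7 genes. Poll has both the highest point among these 7 (14.8 in leukemic_26) and the lowest point of all (0.0327 in leukemic_39).

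Whether leukaemic cells departed from preleukaemic cells alike in model 1 (within TgSpi1FA-/-) and model 2 was tested for each gene by an interaction term over all 17 libraries and 14597 genes. None of the 10 was called with edgeR, beside 4.61% of all genes (2.76% higher and 1.85% lower in model 1), and DESeq2 called 1 (beside 12.9%). At the same time 2 of the 10 had an unadjusted p under 0.05, beside 25.8% of all genes (Trp53bp1, above, and Xrcc6 at -0.48 ± 0.22, adjusted p = 0.194). Over all genes the interaction gave 673 calls, and between 1 and 4 without any 1 of leukemic_28, leukemic_39, preleukemic_77 or preleukemic_224.

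Beyond the 10 genes, 3 lists of end-joining genes were counted. Of 11 accessory NHEJ genes, 10 were tested. From the TgSpi1FA-/- preleukaemic to the leukaemic stage, 1 rose and 3 fell, beside 6.82% and 6.49% of all genes. The gene that rose was Dclre1b (log2 fold change 1.84 ± 0.33, adjusted p = 0.0136), a nuclease of telomeres and crosslink repair, at 67.5, 167.8 and 156.9 CPM in leukaemic and 32.8 to 43.0 CPM in preleukaemic cells. Those that fell were the RecQ helicase gene Wrn (-1.55 ± 0.25), the scaffold gene Aplf (-1.47 ± 0.17) and the XRCC4 paralogue gene Paxx (-1.09 ± 0.31). Aplf read 24.0, 19.2 and 18.3 CPM in leukaemic and 50.01 to 64.1 CPM in preleukaemic cells, and Wrn 122.4, 79.4 and 72.7 against 195.2 to 315.8 CPM. Aplf and Wrn were called in all 13 other fits and Dclre1b in 12 (lost without preleukemic_224), whereas Paxx, at only 3.02 to 8.63 CPM, was called in 2 and lost, among others, with preleukemic_445 and preleukemic_479 averaged. The median of the list was -0.67.

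Against TgSpi1FA+/+ preleukaemic cells, Dclre1b (1.31 ± 0.30) was again higher, and Wrn (-1.50 ± 0.24) and Aplf (-1.32 ± 0.16) lower, beside 3.55% of all genes called higher and 3.46% called lower. The list median was -0.40. These calls held in 14 of 15 other fits for Aplf, 10 for Wrn and 7 for Dclre1b, which was lost with preleukemic_445 and preleukemic_479 averaged. Aplf alone was called without leukemic_39, and none of the 3 in the second table of counts. Dntt, which adds untemplated bases in lymphocytes, did not exceed 0.0513 CPM, and the recombinase gene Rag1 did not exceed 0.0511 CPM in model 1 (Rag2 was not analysed here).

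Of 14 genes that recruit TP53BP1 or act with it in the shieldin and CST complexes, all were tested. From the TgSpi1FA-/- preleukaemic to the leukaemic stage 1 rose and none fell, beside 6.82% and 6.49% of all genes. The gene that rose was Stn1, a subunit of the CST complex. It read 30.2, 25.1 and 32.6 CPM in leukaemic and 6.70 to 11.9 CPM in TgSpi1FA-/- preleukaemic cells (log2 fold change 1.76 ± 0.41, adjusted p = 0.0261), and 9.23 to 25.0 CPM in TgSpi1FA+/+ preleukaemic cells, against which it was not called. The call was lost without leukemic_28, leukemic_39, preleukemic_77 or preleukemic_224. The median of the list was -0.03, and Atm, Mdc1, Rnf8 and Rnf168, which signal the break upstream of TP53BP1, had log2 fold changes from -0.35 to 0.21, none called.

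Of 11 genes of alternative end joining, which rejoins ends through short homologies, all were tested. In the same comparison 3 fell and none rose, beside 6.49% and 6.82% of all genes. Polq, the polymerase that defines the pathway, read 39.05, 37.8 and 41.3 CPM in leukaemic and 92.0, 96.4 and 115.1 CPM in TgSpi1FA-/- preleukaemic cells (-1.36 ± 0.13, adjusted p = 0.00195), and 68.9 to 83.5 CPM in TgSpi1FA+/+ preleukaemic cells (-0.995 ± 0.123, adjusted p = 0.00680). The leukaemic libraries lay below all preleukaemic ones. The first call held in all 13 other fits and the second in 13 of 15, being lost in the second table of counts and without leukemic_28. Nbn (-0.86 ± 0.20) and Rad50 (-0.64 ± 0.11), of the complex that senses and resects ends, also fell, and their partner Mre11a did not pass (-0.18 ± 0.13). The call of Nbn held in 9 of 13 other fits and was lost with only the compared groups and without preleukemic_224, leukemic_28 or leukemic_39, and that of Rad50 held in 11 of 13 and was lost without preleukemic_224 or leukemic_26. The median of the list was -0.18.

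None of the genes of these 3 lists was called between genotypes at the preleukaemic stage or in model 2 with edgeR, beside 0.00747% and 0% of all genes. Unadjusted p-values under 0.05 were found for 2, 0 and 3 of the accessory, shieldin and alternative genes in the first, beside 8.65% of all genes, and for 3, 3 and 3 in the second, beside 19.9%. In the interaction, Aptx (-1.37 ± 0.32) and Nbn (-1.27 ± 0.26) were called lower, beside 1.85% of all genes. Stn1 (2.40 ± 0.54) and Parp1 (1.497 ± 0.402) were called higher, beside 2.76%. None of these 4 calls remained without any 1 of preleukemic_77, preleukemic_224, preleukemic_40, leukemic_28, leukemic_39, leukemic_601 or leukemic_921, and those of Aptx and Parp1 were also lost with preleukemic_445 and preleukemic_479 averaged.

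**Figure D5:**
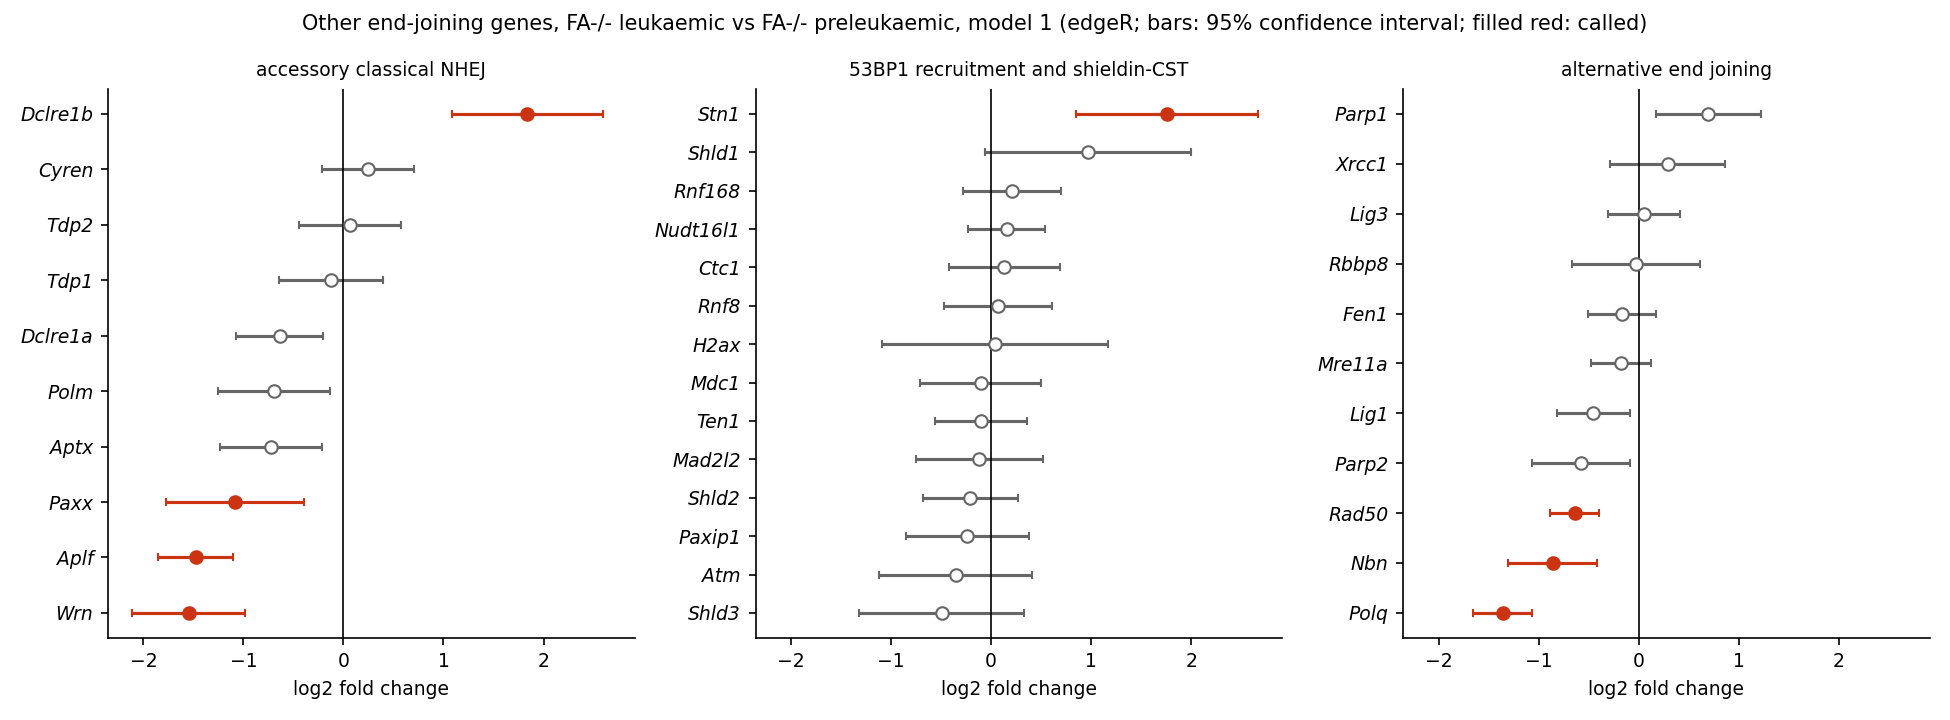
Log2 fold change with its 95% confidence interval for the tested genes of 3 lists, TgSpi1FA-/- leukaemic against preleukaemic cells, from edgeR. Filled red points were called: Dclre1b and Stn1 lie right of 0, and Paxx, Aplf, Wrn, Rad50, Nbn and Polq left of it.

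Some DNA repair genes are expressed most in dividing cells, and a list of 15 proliferation genes was therefore read beside them. None was called in any comparison, and their summed level was 4930 to 7075 CPM in leukaemic cells of model 1, 6356 to 6566 in TgSpi1FA-/- and 6711 to 7279 in TgSpi1FA+/+ preleukaemic cells. In model 2 it was 4077 to 5231 in leukaemic and 4747 to 5183 CPM in preleukaemic cells. Of the erythroid genes, Klf1 (log2 fold change -1.27 ± 0.18) and Hbb-bt (-5.94 ± 1.38) fell between TgSpi1FA-/- preleukaemic and leukaemic cells. Over 4 megakaryocyte genes the sum was 171.0 to 273.6 CPM in leukaemic, 44.8 to 59.7 in TgSpi1FA-/- preleukaemic and 59.4 to 195.8 CPM in TgSpi1FA+/+ preleukaemic cells. Of these genes Itga2b alone was called, higher than in TgSpi1FA-/- preleukaemic cells (3.20 ± 0.38), with Pf4 at 0.74 ± 1.35, Gp9 at 0.75 ± 0.87 and Gp1ba at 0.36 ± 0.68. Against TgSpi1FA+/+ preleukaemic cells Itga2b was again the only one called (2.13 ± 0.33). There Gp1ba was higher (0.71 ± 0.63), and Pf4 (-1.49 ± 1.31) and Gp9 (-0.31 ± 0.81) were lower. Of the 3 T cell genes listed in model 1, Cd3e and Cd3g stayed at 0.274 CPM or less, so their sum was mostly Lck. The sum was 3.86 to 5.54 CPM in leukaemic, 0.819 to 1.49 CPM in TgSpi1FA-/- preleukaemic and 0.929 to 3.72 CPM in TgSpi1FA+/+ preleukaemic cells. Lck was called higher in leukaemic than in TgSpi1FA-/- preleukaemic cells. B cell genes summed to 0.521 to 0.664 CPM in leukaemic and 0 to 0.369 CPM in preleukaemic cells of model 1, and myeloid genes to 0.562 CPM or less and 1.78 CPM or less. The sums of mast cell genes (0.101 to 15.9 CPM) and of stroma and endothelium genes (1.45 to 274.1 CPM) varied within groups of model 1. In model 2, mast cell genes summed to 68.8 to 74.7 CPM in leukaemic against 2.57 to 55.8 CPM in preleukaemic cells. B cell genes summed to 0.653 to 6.10 against 0 to 0.403 CPM, and myeloid genes to 0.0568 to 0.205 against 0.321 to 0.775 CPM. Each of these sums was without overlap, as for Poll in that comparison. Of all genes tested there, 20.1% were also without overlap. The sums of erythroid, megakaryocyte, T cell, proliferation, and stroma and endothelium genes overlapped between the groups of model 2. Of the 5 B cell genes listed in model 2, 4 stayed under 1 CPM in leukaemic cells. All 4 myeloid genes listed there did so in both groups. The part of these other cell types in the levels of Prkdc, Trp53bp1, Poll and the other end-joining genes was not tested.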

How the data were processed

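The authors deposited unnormalized counts of reads for each Ensembl gene in a table for each model, and a second table with other counts of 7 mice of model 1 (35497594 to 171572736 counts per library). A copy of the model 2 table was not used. The submitters' processing notes name bcl2fastq 2.17.1.14, STAR 2.5.3a, HTSeq 0.6.1p1 and the builds mm10 and GRCm38, and the strand setting and annotation are not given in the sources used here. Libraries were stranded and selected for polyA. Positions and exon lengths were taken from GENCODE M21 (GRCm38), where 99.8% of the model 1 identifiers had an entry.

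Counts were fitted with edgeR 4.0.16 (R 4.3.3; TMM, filterByExpr, glmQLFit and glmQLFTest), 1 fit per model with all its groups and 1 of all 17 libraries for the interaction. Genes were called at a Benjamini-Hochberg adjusted p under 0.05 over all genes tested and a fold change of at least 1.5. Confidence intervals are at 95%. Exact permutation tests (scipy 1.17.1) were two-sided and used log2 CPM with a prior count of 2. Replicates are single mice by their labels, and p-values measure the spread between their libraries. Alternatives were DESeq2 1.42.0, its size factors in edgeR, other filters, robust empirical Bayes, only the compared groups, preleukemic_445 and preleukemic_479 averaged, the second table and each mouse left out.

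In simulated data with these dispersions, 100 genes were changed by 1 log2 unit and 100 by 2, and no others. Of these, 15 and 55 were called for TgSpi1FA-/- leukaemic against preleukaemic cells (13075 genes), and 2 and 42 for model 2 (12675 genes). The real data held 1782 calls in the first of these comparisons, so these rates do not give the sensitivity of the real fits. The members, lists, tests and alternatives were chosen with earlier results of these data known. Named genes were the 10 members, the genes of the lists that were called, Fanca, and the 5 genes most like the members in each model. Btrc, Fbxw4, Map1a, Gm17018, Mcm4, Spi1, the genes that overlap members and the list genes named without a call were chosen after values had been seen. The list of accessory genes was counted without 1 gene, which is not reported here.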

Additional observations from a re-analysis of the deposited data

Results flagged for a closer look

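In groups of 4 mice, a value was looked at again where its gap to the nearest other mouse took up most of the range of the group (Dixon's test at 95%). Of 32 such groups of member levels and partner ratios, 3 met this, all in TgSpi1FA+/+ preleukaemic mice of model 1, and chance alone gives about 1 in 20 for independent mice. That group holds the nearly alike libraries of preleukemic_445 and preleukemic_479 and the rate was not computed for such a pair. Dclre1c read 33.6 CPM in preleukemic_451 against 23.1 to 23.6 CPM in the other 3 mice. The second table of counts did not set preleukemic_451 apart, at 62.1 CPM beside 58.4, 46.2 and 37.2 CPM in preleukemic_138, preleukemic_479 and preleukemic_445. The ratio of Dclre1c to Prkdc per kb was 0.485 in preleukemic_138 against 0.549 to 0.554 in the others. The ratio of Nhej1 to Xrcc4 per kb was 8.26 in preleukemic_138 against 2.95 to 3.41 in the others, in the mouse with the lowest level of Xrcc4. Groups of 3, among them the leukaemic group with the low Poll of leukemic_39, are too small for this test.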

How the results depend on the processing

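Of 780 values of single genes under an alternative, 17 lost a call, 3 gained one and 36 changed sign. No called value changed sign. With DESeq2's size factors in edgeR, without a filter, with only the compared groups and with preleukemic_445 and preleukemic_479 averaged, 0 of the 10 genes were called between TgSpi1FA-/- leukaemic and preleukaemic cells. With the last 2 of these and in the second table, 0 were called between leukaemic and TgSpi1FA+/+ preleukaemic cells. DESeq2 called 1 gene (Trp53bp1) in the interaction. Leaving out single mice gave 0 to 1 calls in each of these 3 comparisons, and without leukemic_26 the gene called between TgSpi1FA-/- leukaemic and preleukaemic cells was Trp53bp1 in place of Prkdc. The counts for genotypes at the preleukaemic stage and for model 2 were 0 under every alternative. The second table turned the sign of Xrcc4 (0.10) and Nhej1 (-0.11) for leukaemic against TgSpi1FA+/+ preleukaemic cells, and leaving out single mice moved Xrcc5 in model 2 between -0.32 and 0.47 and Poll in the interaction between -0.91 (without leukemic_26) and 1.17 (without leukemic_39), all uncalled. The longest transcript in place of merged exons changed the place of up to 7 genes in a group, and the total count in place of TMM moved a level by up to 7.86%, with 49 of 50 group means within 1 SD. The cause was not tested. Calls over all genes, in the order of the report's first 4 comparisons and the interaction, were 1782, 939, 1, 0 and 673 with edgeR and 3067, 2245, 236, 478 and 2002 with DESeq2. The first was 1205 with only the compared groups and 414 to 2319 with single mice left out. The second was 635 with only the compared groups, 112 with preleukemic_445 and preleukemic_479 averaged, 267 in the second table and 53 to 1911 with single mice left out. The third was 4 without a filter and 1 to 16 with single mice left out. The fourth was 0 to 1 with single mice left out. The interaction gave 279 without a filter, 293 with the averaged libraries and 1 to 1359 with single mice left out. No paired analysis was possible because mouse numbers are not shared between groups.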

Other observations

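The mean log2 CPM of the 10 genes was followed through the libraries of each model and compared with every other gene tested. In model 1 the mean was 4.76 in leukemic_39 and 5.07 to 5.53 in the other 9 libraries, and the near absence of Poll enters the value of leukemic_39. The genes with the most similar pattern over the 10 libraries were Sertad2 (Pearson's r = 0.972), Gm13748 (0.952), Mtmr1 (0.952), Gosr1 (0.936) and Abcc1 (0.936), among 13383 genes. In model 2 the mean was 4.73 to 4.98 in the 3 leukaemic and 4.79 to 5.11 in the 4 preleukaemic libraries. Flcn (0.980), Ccdc92 (0.969), Plekhm1 (0.966), Slfn14 (0.958) and Car7 (0.957) were the most similar over its 7 libraries, among 12960 genes. None of these genes was among the most similar in both models. The points of each correlation share libraries and scaling, and the values are descriptions of the best of many genes.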
